A study of Sus scrofa with 11 samples.

Results

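The genes described here are the immediate early genes and the stress response genes of pig carotid artery, a set of 42 named genes. They were read by name from a table of 35670 genes, and 41 of the 42 had a row of that name, each only 1 such row. JUND has none and was not analysed here. All 41 passed the filter on low counts, which kept 15930 genes. The artery came from pigs (Sus scrofa) held on a Western diet high in fat and calories for 12 weeks. Under anaesthesia they were infused into a vein every week with 400 nM of single-walled carbon nanotubes. The 5 SWNT animals with counts got nanotubes whose label names no drug. The 5 SWNT-SHP1i animals with counts got nanotubes carrying a chemical that blocks SHP-1, a tyrosine phosphatase. The study asked if SHP-1 inhibition in macrophages lowers dying cells and inflammation in the artery without anaemia. Both groups share the diet, the weekly anaesthesia and the nanotube, so no untreated animal enters the comparison. The labels give neither strain, sex, age nor the time between death and freezing of the tissue. A sixth SWNT-SHP1i animal, replicate 4, is labelled as dead before harvest and was not analysed here.

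Immediate early genes are transcribed within minutes of a stimulus, without the need for new protein, from promoters already held ready by factors such as SRF, CREB and NF-kappaB. Many encode transcription factors, among them the FOS and JUN proteins that pair to form AP-1, the EGR and KLF zinc finger factors and the NR4A nuclear receptors. Others encode inhibitors that shut the response off again: the phosphatases of MAP kinases (DUSP genes), the RNA-binding protein ZFP36 that speeds decay of cytokine mRNA, and NFKBIA and TNFAIP3, which restrain NF-kappaB. In vessel wall this programme is known to answer stretch, injury, growth factors, cytokines and the handling of tissue. The chaperones in the set belong to the heat shock response, driven by HSF1, and assist protein folding.

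Total counts ran from 27593564 to 47718854 reads, and SWNT replicate 3, a library that matters throughout, was the deepest. Levels are given as reads per 1000000 (CPM) on library sizes scaled by TMM, and values are always listed in the order SWNT replicates 1 to 5, then SWNT-SHP1i replicates 1, 2, 3, 5 and 6, each replicate a separate animal. Artery markers were present in every library: the 12 smooth muscle markers summed to 48296 to 71585 CPM in SWNT and 24023 to 57963 CPM in SWNT-SHP1i, and 0 of them were at 0 in SWNT replicate 3. In bulk tissue, fewer cells of a type and less RNA per cell cannot be told apart. The members were selected on these same values, with both the contrast between the treatments and the high levels of SWNT replicate 3 known, so what follows describes them and supports no test of the set.

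Most of these genes stood highest in 1 control animal, SWNT replicate 3. The levels of the treatment groups overlapped for every member, as for nearly all genes tested. Only 0.276% of all genes had every SWNT-SHP1i library below every SWNT library, and 0.0816% had every one above. Of 41 members, 31 had their highest level in SWNT replicate 3, where 11.3% of all genes tested did. SWNT replicate 4 and SWNT-SHP1i replicate 5 each held the highest level of 4 members (5.35% and 14.2% of all genes), and SWNT-SHP1i replicate 6 that of 2 (29.4% of all genes). Among the other 9 libraries the highest level lay in SWNT replicate 4 for 12 members (6.09% of all genes), in SWNT-SHP1i replicate 5 for 11 (15.9%) and in SWNT-SHP1i replicate 6 for 11 (31.9%). The median member in SWNT replicate 3 lay 2.14 log2 units above its own median over the 10 libraries, against -0.01 for the median of all genes. The same quantity for the members ran from -0.40 in SWNT-SHP1i replicate 1 to 0.35 in SWNT replicate 4 over the other 9 libraries. In SWNT replicate 3, 30 members were at least 2-fold above the median of the other 9 libraries (7.93% of all genes), 21 at least 4-fold (1.63%) and 11 at least 8-fold (0.326%). Those 11 members are among 52 genes of the whole table that reached 8-fold. Together the members took 0.909% of all reads in SWNT replicate 3, 0.514% in SWNT-SHP1i replicate 5 and 0.477% in SWNT replicate 4, and from 0.227% to 0.350% in the other 7 libraries. Within SWNT, replicate 3 lay apart from the other 4 libraries by Dixon's ratio of gap to range for 7 members (1.88% of all genes).

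**Figure D1:**
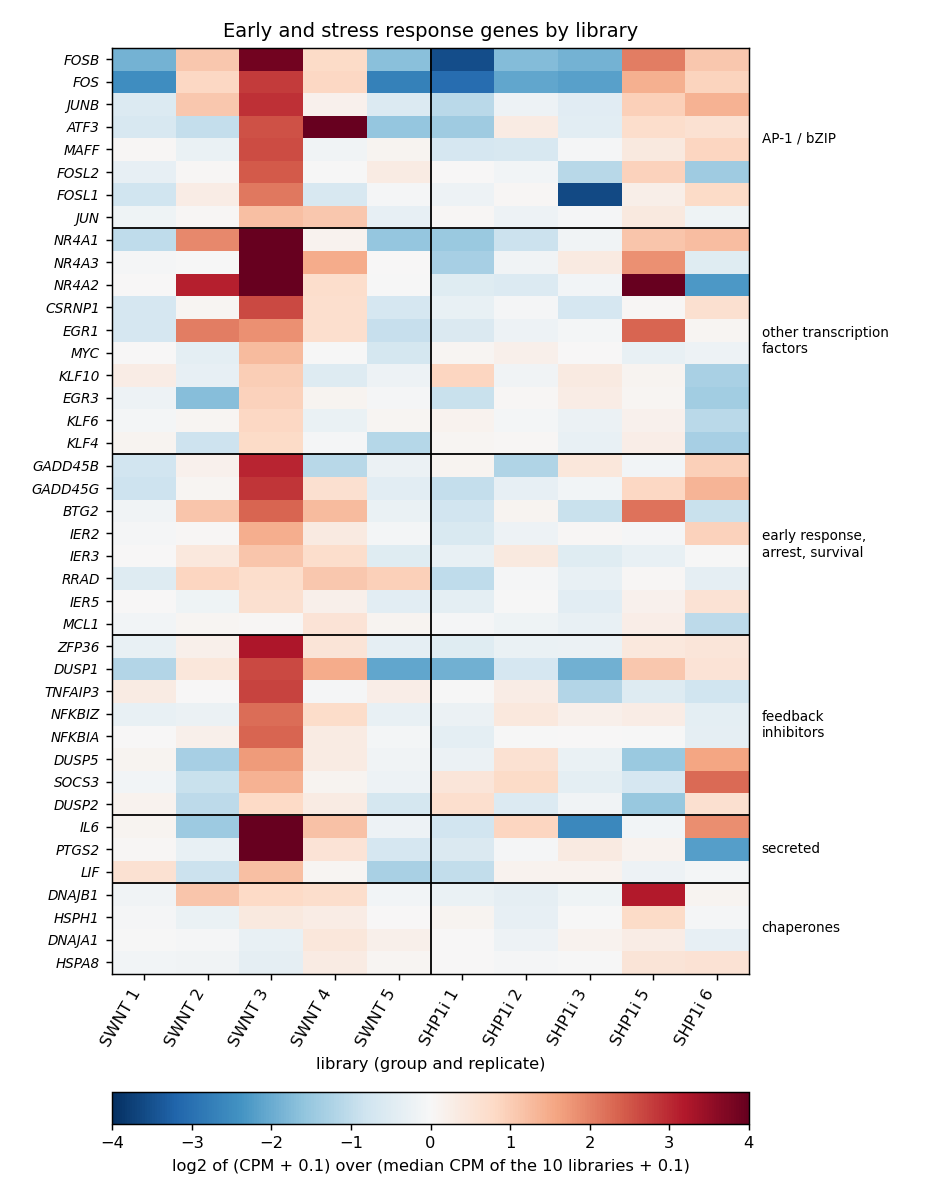
Each cell is 1 of 41 genes (rows, by role) in 1 of 10 libraries (columns, SWNT left and SWNT-SHP1i right of the line), coloured by log2 of CPM over the median CPM of the gene's 10 libraries, with 0.1 added to both and colours ending at 4 log2 units either way. The column of SWNT replicate 3 is above the median for 39 of 41 genes, and the chaperones at the bottom do not share its strength.

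Per kilobase of exon, the order of the members' levels also differed between that library and the rest. Over the other 9 libraries the median level of JUN was the highest of the members, at 201 CPM per kilobase, followed by MCL1 at 81.5, HSPA8 at 67.1 and ZFP36 at 46.9. IL6 (0.381) and FOSL1 (0.627) were the lowest. In SWNT replicate 3 ZFP36 (531 CPM per kilobase) and NR4A1 (528) stood above JUN (479.6) and DUSP1 (394). NR4A1 had a median of 19.8 CPM per kilobase over those 9 libraries.

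The AP-1 genes with the widest range were FOSB, FOSL1, ATF3, FOS and JUNB. FOS (ENSSSCG00000002383, chr7:98449349-98455554 on Sscrofa11.1), whose protein pairs with JUN proteins, stood at 14.6, 146, 567, 144 and 12.5 CPM in SWNT and at 9.71, 19.3, 17.9, 221 and 153 CPM in SWNT-SHP1i. Its values fell into 5 libraries at 144 CPM or more and 5 at 19.3 CPM or less, and both treatments were on both sides of that gap. FOSB (ENSSSCG00000031616, chr6:51837719-51844529), a close relative of FOS, stood at 3.95, 31.5, 218, 25.0 and 4.61 CPM in SWNT and at 1.17, 4.35, 3.91, 61.6 and 31.2 CPM in SWNT-SHP1i. The same 5 libraries were high for FOSB. JUNB (ENSSSCG00000013735, chr2:66214138-66217002), an AP-1 partner that can oppose JUN, stood at 48.3, 148, 535, 79.5 and 48.3 CPM in SWNT and at 33.5, 61.7, 51.1, 138 and 184 CPM in SWNT-SHP1i. SWNT replicate 3 was 29.4-fold, 47.3-fold and 8.66-fold above the median of the other 9 for FOS, FOSB and JUNB, and the groups overlapped for each. ATF3 (ENSSSCG00000015595, chr9:130772262-130785506), a bZIP factor induced by many kinds of stress, departed from them and stood at 10.1, 8.11, 92.8, 342 and 5.30 CPM in SWNT and at 5.77, 19.7, 11.6, 25.8 and 23.8 CPM in SWNT-SHP1i. Its highest level by far was in SWNT replicate 4, with SWNT replicate 3 second, and the remaining 8 libraries lay at 5.30 to 25.8 CPM. FOSL1, a FOS relative with low counts here, stood at 0.613, 1.42, 5.14, 0.678 and 1.08 CPM in SWNT and at 0.966, 1.17, 0, 1.35 and 1.996 CPM in SWNT-SHP1i. It had 0 reads in SWNT-SHP1i replicate 3, and its level there cannot be told from 1 of up to 3 reads. The remaining AP-1 members were FOSL2 (249 CPM in SWNT replicate 3 and 16.9 to 86.1 CPM elsewhere), JUN (904 and 313 to 815 CPM) and MAFF (94.9 and 9.61 to 28.0 CPM), a small MAF protein without an activation domain. JUN was nearly as high in SWNT replicate 4 as in replicate 3, and of the other AP-1 members only ATF3 stood higher in replicate 4 than in replicate 3.

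Among the other transcription factors the NR4A receptors, which act without a known physiological ligand, spread most. NR4A1 (ENSSSCG00000031321, chr5:17385390-17408511) stood at 29.2, 224, 1415, 63.8 and 19.9 CPM in SWNT and at 20.7, 31.9, 53.0, 127 and 136 CPM in SWNT-SHP1i. It reached 1415 CPM in SWNT replicate 3, 6.33-fold above the next library. NR4A2 stood at 8.70, 73.7, 142, 14.0 and 8.38 CPM in SWNT and at 6.10, 5.79, 7.96, 168 and 1.66 CPM in SWNT-SHP1i. Its highest library was SWNT-SHP1i replicate 5 and its lowest SWNT-SHP1i replicate 6, so that the widest gap of this gene lay inside 1 treatment group. NR4A3 stood at 5.45, 5.60, 108, 16.01 and 5.63 CPM in SWNT and at 2.19, 5.08, 7.17, 20.4 and 3.99 CPM in SWNT-SHP1i. Like NR4A1 it was highest in SWNT replicate 3, by 5.28-fold over the next library. CSRNP1, an AXIN1-induced nuclear protein, stood at 7.11, 12.0, 70.9, 18.0 and 7.005 CPM in SWNT and at 9.17, 10.9, 7.12, 11.7 and 17.5 CPM in SWNT-SHP1i. All libraries but SWNT replicate 3 lay at 18.0 CPM or less. EGR1 (ENSSSCG00000014336, chr2:140441421-140445296), the zinc finger factor often used as a marker of recent stimulation, stood at 65.3, 429, 371, 166 and 54.99 CPM in SWNT and at 69.9, 89.8, 98.3, 523 and 111 CPM in SWNT-SHP1i. EGR1 was highest in SWNT-SHP1i replicate 5 and SWNT replicate 2, ahead of SWNT replicate 3. The remaining factors varied less. MYC, which drives growth and the cell cycle, stood at 73.7 CPM in SWNT replicate 3 and at 18.7 to 34.8 CPM elsewhere. Of the zinc finger factors of the Kruppel-like family, KLF4, a regulator of smooth muscle phenotype, stood at 110.1 and 25.6 to 77.8 CPM, KLF6 at 233 and 62.1 to 148 CPM, and KLF10, induced by TGF-beta, at 102 and 20.9 to 93.5 CPM. The weakly expressed EGR3 stood at 5.56 and 0.826 to 3.53 CPM. All 5 were highest in SWNT replicate 3, although for KLF10 the next library, SWNT-SHP1i replicate 1, was close.

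In the group of early response, growth arrest and survival genes, GADD45B, a sensor of stress that activates MAP kinase cascades, stood at 31.5, 59.8, 443, 24.9 and 45.1 CPM in SWNT and at 57.4, 23.2, 73.5, 49.5 and 102 CPM in SWNT-SHP1i. Its relative GADD45G stood at 6.65, 12.8, 87.3, 18.7 and 8.86 CPM in SWNT and at 6.15, 9.58, 11.2, 21.3 and 30.8 CPM in SWNT-SHP1i. Both were highest in SWNT replicate 3 and second in SWNT-SHP1i replicate 6. BTG2, an antiproliferative factor that recruits mRNA deadenylases, stood at 16.8, 39.9, 93.6, 44.5 and 15.2 CPM in SWNT and at 10.9, 19.9, 9.78, 83.2 and 9.94 CPM in SWNT-SHP1i. SWNT-SHP1i replicate 5 was close behind SWNT replicate 3 for BTG2. IER2, an early response gene of the nucleus, stood at 49.95, 53.8, 141, 66.3 and 49.0 CPM in SWNT and at 33.8, 44.7, 53.5, 50.4 and 99.2 CPM in SWNT-SHP1i. RRAD (ENSSSCG00000036060, chr6:27601695-27605083), a small GTPase that restrains voltage-gated calcium channels, stood at 40.3, 105, 93.6, 121 and 112 CPM in SWNT and at 28.6, 56.3, 46.5, 59.1 and 45.1 CPM in SWNT-SHP1i. For RRAD, 4 of 5 SWNT libraries lay at 93.6 CPM or more and all 5 SWNT-SHP1i libraries at 59.1 CPM or less, with SWNT replicate 1 at 40.3 CPM among the latter. Some cell type marker sums were also lower in SWNT-SHP1i and others higher, and their part in the RRAD values was not tested. The 8 Schwann cell and nerve markers with a row summed to 199 to 262 CPM in SWNT and 118 to 169.9 CPM in SWNT-SHP1i, without overlap. In SWNT replicate 1, the lowest SWNT library for RRAD, the nerve sum was 262 CPM and the smooth muscle sum 49078 CPM. In SWNT replicate 4, the highest library for RRAD, they were 204 and 48296 CPM. Of the 5 smooth muscle sums in SWNT-SHP1i, 4 lay below all 5 in SWNT. Fibroblast sums leaned the other way, at 33965 to 67060 CPM in SWNT and 56075 to 82742 CPM in SWNT-SHP1i. So did macrophage sums, at 392 to 1177 CPM and 409.6 to 1990 CPM. The 8 skeletal muscle markers with a row summed to 20.7 to 41.0 CPM in SWNT and 21.3 to 177 CPM in SWNT-SHP1i. IER3 stood at 30.3 CPM in SWNT replicate 3 and 10.03 to 22.8 CPM elsewhere, IER5 at 51.1 and 24.5 to 48.9 CPM, and MCL1, an anti-apoptotic BCL2 relative, at 346 and 163 to 490.0 CPM. MCL1 was highest in SWNT replicate 4 and lowest in SWNT-SHP1i replicate 6.

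The feedback inhibitors held some of the clearest examples of the single high library. ZFP36 (ENSSSCG00000028056, chr6:48063677-48066250), which encodes tristetraprolin, stood at 79.3, 114, 935, 139.8 and 77.2 CPM in SWNT and at 70.0, 82.4, 82.7, 131 and 137 CPM in SWNT-SHP1i. The other 9 libraries lay at 70.0 to 139.8 CPM, and SWNT replicate 3 was 11.3-fold above their median. DUSP1 (ENSSSCG00000016991, chr16:51458020-51461086), which removes phosphate from p38 and JNK, stood at 55.4, 170.2, 767, 346 and 29.3 CPM in SWNT and at 32.3, 77.4, 32.6, 262 and 179.8 CPM in SWNT-SHP1i. Its 5 highest libraries were the 5 highest of FOS. TNFAIP3 (ENSSSCG00000004154, chr1:26473938-26489822), the ubiquitin-editing protein A20, stood at 17.4, 14.2, 92.1, 13.5 and 16.9 CPM in SWNT and at 13.7, 17.1, 6.08, 9.77 and 7.99 CPM in SWNT-SHP1i. TNFAIP3 was high in SWNT replicate 3 alone. NFKBIA (ENSSSCG00000001952, chr7:64507822-64511277), the inhibitor IkappaB-alpha and itself a target of NF-kappaB, stood at 338 CPM there and at 51.1 to 83.8 CPM elsewhere, and NFKBIZ, a nuclear regulator of NF-kappaB target genes, at 138 and 22.2 to 48.5 CPM. SOCS3, the inhibitor of IL-6 receptor signalling, stood at 14.4, 8.29, 40.8, 16.8 and 13.6 CPM in SWNT and at 22.1, 26.5, 12.0, 9.77 and 75.8 CPM in SWNT-SHP1i. DUSP5, a nuclear phosphatase of ERK, stood at 3.22, 1.12, 9.96, 3.74 and 2.69 CPM in SWNT and at 2.49, 4.52, 2.44, 0.989 and 9.11 CPM in SWNT-SHP1i. SOCS3 was highest in SWNT-SHP1i replicate 6 and DUSP5 was nearly as high there as in SWNT replicate 3. DUSP2, also a nuclear MAP kinase phosphatase, was low throughout, at 5.63 CPM in SWNT replicate 3 and 1.05 to 5.08 CPM elsewhere.

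The secreted signals and the enzyme of prostaglandin synthesis followed SWNT replicate 3 most narrowly. PTGS2 (ENSSSCG00000015579, chr9:127850015-127858884), the inducible cyclooxygenase, stood at 6.81, 5.31, 146, 9.56 and 4.10 CPM in SWNT and at 4.32, 6.26, 8.37, 7.16 and 1.33 CPM in SWNT-SHP1i. No other library came within 15.3-fold of SWNT replicate 3. IL6 (ENSSSCG00000020970, chr9:91506421-91511263), the inflammatory cytokine, stood at 0.545, 0.118, 17.5, 1.25 and 0.419 CPM in SWNT and at 0.254, 0.978, 0, 0.450 and 2.08 CPM in SWNT-SHP1i. With 782 reads in SWNT replicate 3 and 0 to 50 in the other libraries, IL6 was hardly detected outside it, and 0 reads in SWNT-SHP1i replicate 3 allow up to 3. LIF, a cytokine of the same family, stood at 6.06, 2.12, 9.15, 4.17 and 1.56 CPM in SWNT and at 1.93, 4.35, 4.35, 3.45 and 3.74 CPM in SWNT-SHP1i. LIF was also highest in SWNT replicate 3, but by no more than 1.51-fold over SWNT replicate 1.

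Of the chaperones, 0 of 4 were highest in SWNT replicate 3, which for so few genes is near the 11.3% of all genes. HSPA8, the constitutive HSC70, was lowest there. HSPH1 was second highest in that library, and DNAJB1 was 1.88-fold above the median of the other 9 there. HSPA8 stood at 409, 393, 339, 552 and 463 CPM in SWNT and at 441, 423, 433, 622 and 652 CPM in SWNT-SHP1i. DNAJB1 (ENSSSCG00000013784, chr2:64758957-64765485), the HSP40 partner of HSP70, stood at 81.7, 195, 156, 147 and 83.2 CPM in SWNT and at 75.8, 71.3, 81.0, 811 and 98.0 CPM in SWNT-SHP1i. A single SWNT-SHP1i library, replicate 5, carried DNAJB1 at 811 CPM, 4.17-fold above the next, and the groups otherwise overlapped. HSPH1, a nucleotide exchange factor of HSP70, stood at 31.6, 27.1, 42.5, 39.4 and 32.3 CPM in SWNT and at 34.9, 25.6, 32.3, 55.2 and 31.0 CPM in SWNT-SHP1i. It was highest in the same library. DNAJA1, another co-chaperone, stood at 62.1 CPM in SWNT replicate 3 and 61.5 to 105 CPM elsewhere.

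A second pattern lay beneath the first and cut across the treatments. The 5 libraries with the highest FOS were SWNT replicates 2, 3 and 4 and SWNT-SHP1i replicates 5 and 6. These were also the 5 highest libraries of FOSB, JUNB, EGR1, NR4A1, ZFP36, DUSP1, GADD45G, DNAJB1 and CSRNP1, which makes 10 of 41 members with FOS itself included, where 53 of all genes tested (0.333%) had the same 5 highest libraries. The step between the fifth and the sixth library was 7.49-fold for FOS, 5.43-fold for FOSB and 2.20-fold for DUSP1. For the other 7 of these genes the step was 1.08-fold (CSRNP1) to 1.38-fold (ZFP36), a much narrower gap than that of the first 3. This grouping of libraries was noticed in the data, carries no label and was put to no test. MYC had 1 of the 5 libraries among its own 5 highest, and KLF4, KLF10, TNFAIP3, LIF and DNAJA1 had 2.

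**Figure D2:**
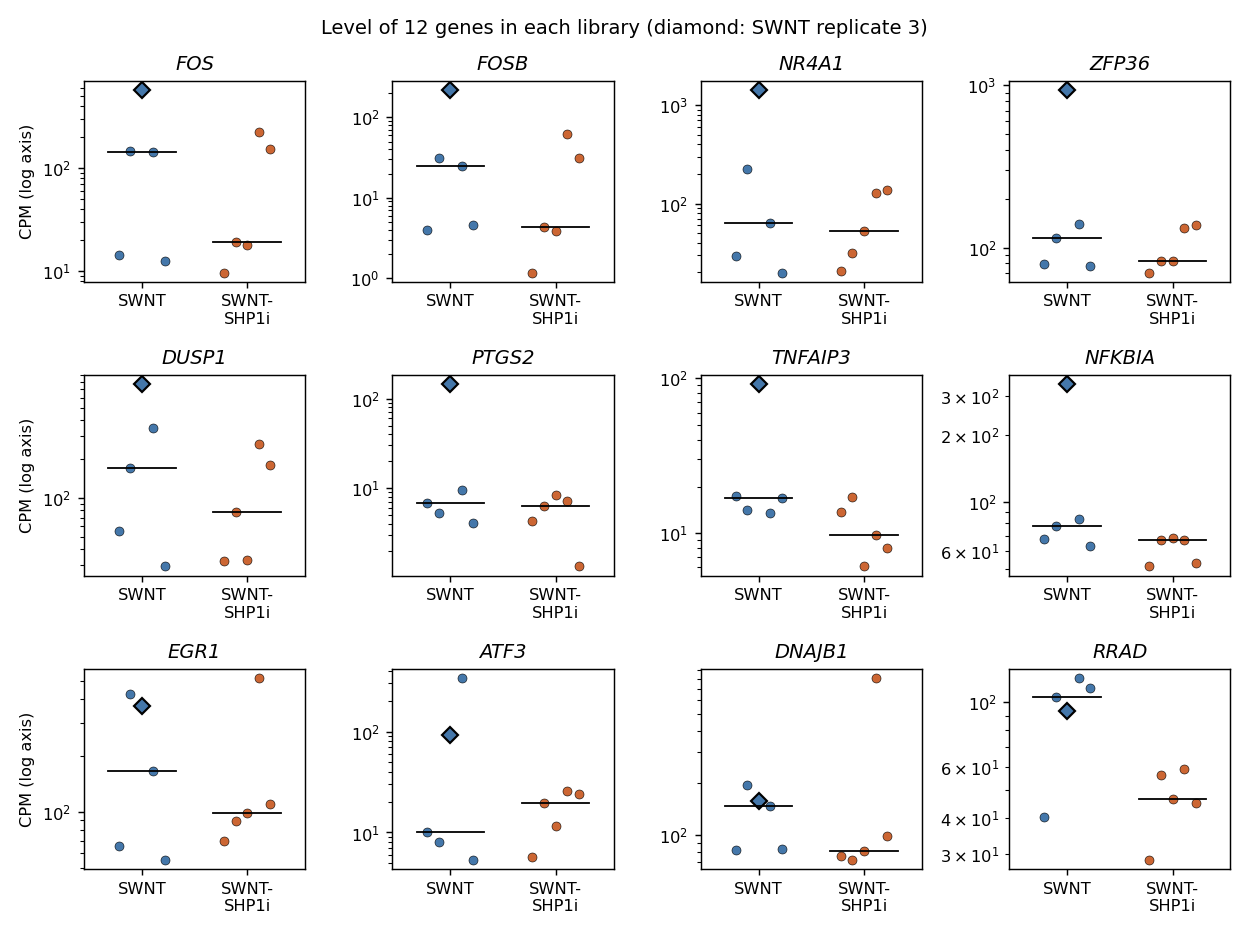
Points are the CPM of 12 genes in each of 10 libraries on log axes that differ between panels and do not start at 0, with SWNT in blue, SWNT-SHP1i in orange, the median of each group as a line and SWNT replicate 3 as a diamond. PTGS2, TNFAIP3 and NFKBIA are high in that library alone, FOS, FOSB and DUSP1 are also high in 4 others from both groups, and ATF3 and RRAD follow neither course, with DNAJB1 highest in SWNT-SHP1i replicate 5.

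Co-variation over libraries showed the same division. Over all 10 libraries the median Pearson correlation of log2 CPM between 2 members was 0.48 (median Spearman rho 0.32), with 706 of 820 pairs positive and 172 above 0.7, where the median over all pairs of genes tested was 0.00835. Without SWNT replicate 3 the median over members was 0.21 (rho 0.17), with 537 pairs positive and 84 above 0.7. The median over all pairs of genes tested was then 0.00925. Pairs that were positive or above 0.7 were not counted over all genes, so nothing is read from those counts. These correlations are over 10 or 9 libraries, share depth and scaling, and are given as a description without a test. By role, the median over AP-1 genes was 0.60 with and 0.37 without that library, over the other transcription factors 0.54 and 0.21, over the early response genes 0.50 and 0.27, and over the feedback inhibitors 0.47 and -0.05. Over the secreted group it was 0.57 and 0.22. The chaperones alone went the other way, from 0.36 to 0.57.

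Of the 40 correlations of FOS with another member, 36 were lower without SWNT replicate 3, and 13 were above 0.7 with it and 10 without it. Among those that stayed high, the correlation with FOSB was 0.98 with and 0.97 without SWNT replicate 3, with DUSP1 0.96 and 0.94, with JUNB 0.93 and 0.92, with NR4A1 0.90 and 0.90, and with ZFP36 0.80 and 0.97. The correlation of FOS with JUN was 0.72 and 0.56, with NR4A3 0.74 and 0.60, with NFKBIA 0.62 and 0.36, and with FOSL2 0.48 and 0.10. Another tight pair was SOCS3 and DUSP5 (0.91 and 0.90), both high in SWNT-SHP1i replicate 6. That library also stood apart in cell type markers: the 5 neutrophil markers with a row summed to 314 CPM there and 1.59 to 47.0 CPM in the other 9 libraries, and the 10 lymphocyte markers to 193 CPM there and 19.0 to 71.7 CPM in the other 9 libraries. The macrophage markers summed to 1990.2 CPM there and 392 to 1433 CPM in the other 9 libraries, and the smooth muscle markers to 24023 CPM there and 35287 to 71585 CPM in the other 9 libraries. The part of these in the levels of SOCS3 and DUSP5 was not tested. The pair ran against NR4A2 in the 9 libraries, with r of -0.91 for DUSP5 (rho -0.68) and -0.80 for SOCS3 (rho -0.82). KLF10 ran against IER2 (-0.90 over 9 libraries with rho -0.70, -0.14 over 10 with rho -0.24). These pairs are among the most negative of the 820 over 9 libraries, where the lowest was -0.91. SWNT-SHP1i replicate 6 had the lowest KLF10 (20.9 CPM) and, of the 9 libraries, the highest IER2 (99.2 CPM). Measured against the mean of all other members, DUSP1 (0.97), ZFP36 (0.92) and FOS (0.90) followed the set most closely over the 9 libraries. TNFAIP3 was at 0.72 over 10 libraries and -0.13 over 9, MYC at 0.71 and -0.13, GADD45B at 0.65 and -0.21, and PTGS2 at 0.78 and 0.08. Their agreement with the set thus rested on SWNT replicate 3.

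**Figure D3:**
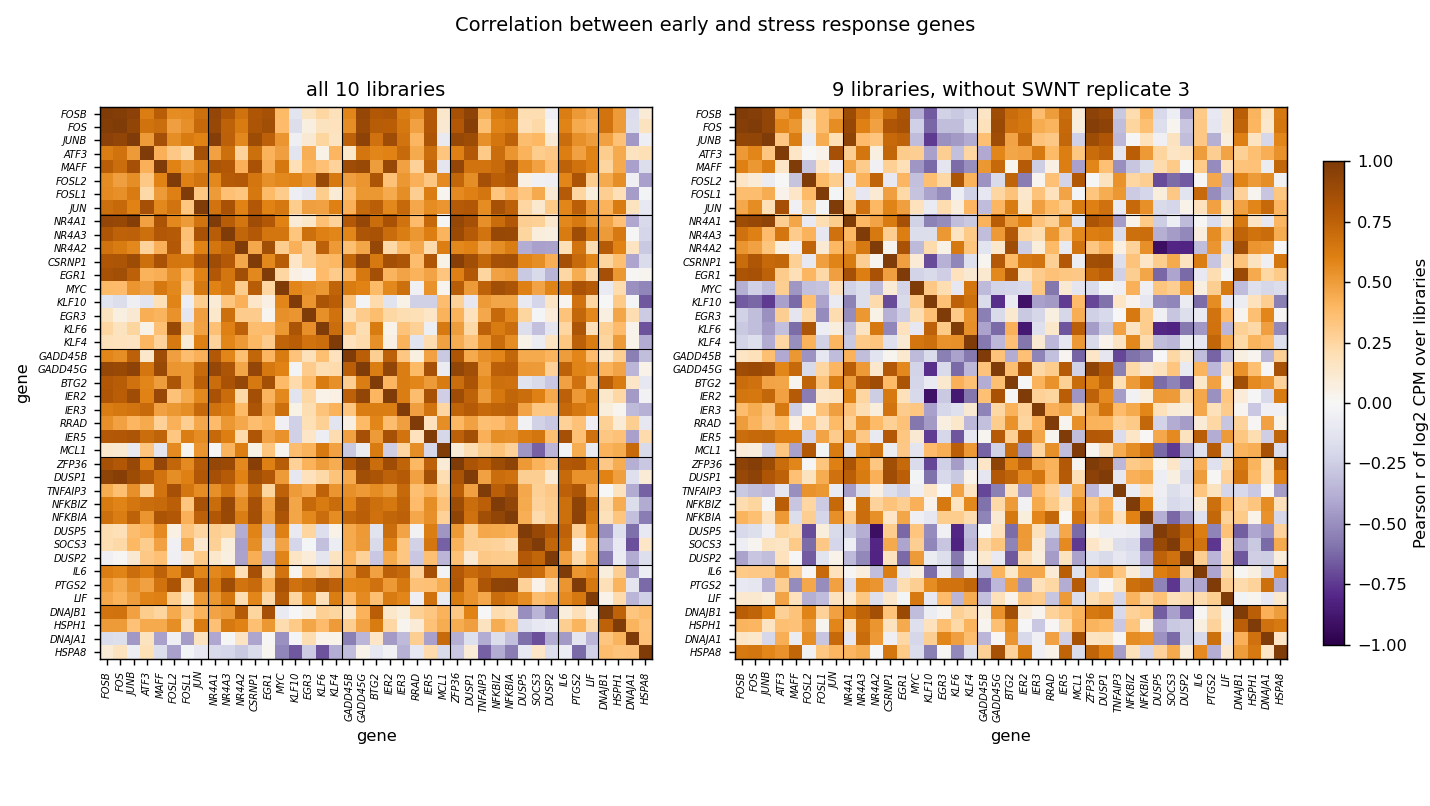
Each cell is the Pearson correlation of log2 CPM between 2 of 41 genes, over 10 libraries on the left and over 9 on the right, with lines between the role groups in the order of the heatmap. The median is 0.48 on the left and 0.21 on the right, and the block of FOS, FOSB and JUNB stays dark in both.

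The genes outside the set whose log2 CPM was most like the members' mean over 10 libraries were SIK1 (r = 0.96), APOLD1 (0.95), NFIL3 (0.94), DDIT4 (0.94), CXCL2 (0.94), RASD1 (0.94), COQ7 (0.94), USP2 (0.93), RGS2 (0.93) and PPP1R15A (0.91). SIK1, a kinase induced by cyclic AMP, stood at 667 CPM in SWNT replicate 3 and at 5.84 to 32.4 CPM in the other libraries. Over the 9 libraries without SWNT replicate 3 the 10 nearest were FDX1 (r = 0.93), H2AC20 (0.88), PPP1R15A (0.87), NFIL3 (0.85), APOLD1 (0.85), INTS12 (0.84), RBM15 (0.83), SIK1 (0.82), DDIT4 (0.81) and RNF41 (0.81). PPP1R15A, NFIL3, APOLD1, SIK1 and DDIT4 were thus in both lists. PPP1R15A, the phosphatase subunit that reverses the block of translation under stress, stood at 147 CPM in SWNT replicate 3 and at 14.6 to 67.7 CPM elsewhere.

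Between the treatments, most members had lower fitted values in SWNT-SHP1i. Once SWNT replicate 3 was set aside, their share came nearer to that of all genes. Of 41 members 37 had a negative log2 fold change of SWNT-SHP1i over SWNT (49.2% of all genes tested), with a median of -0.65 where the median of all genes was 0.01. DUSP2 was positive with RLE scaling and KLF10 with upper-quartile scaling, which left 36 negative in each. Without SWNT replicate 3, 17 were negative (49.2% of all genes) and the median was 0.04. The sign differed for 20 members, among them FOS, FOSB, JUNB, IL6 and GADD45B. Of 41 members 0 passed an adjusted p of 0.05 in the quasi-likelihood test of edgeR over all genes, with or without that library (0% of all genes in both), and the smallest adjusted p of a member was 0.997 with it and 0.983 without it. DESeq2 and limma-voom called 0 members and 0 genes, with quality weights for each library in the latter. At an unadjusted p under 0.05, DESeq2 gave 3 members lower (ATF3, NR4A1 and RRAD, against 1.38% of all genes) and 0 higher (4.87%), and limma-voom gave 1 lower (RRAD, against 3.92%) and 0 higher (4.87%). At an unadjusted p under 0.05, edgeR gave 5 members lower (ATF3, NFKBIA, TNFAIP3, PTGS2 and RRAD, against 1.15% of all genes) and 0 higher (3.49%). Without SWNT replicate 3 it gave RRAD alone lower (0.841%) and 0 higher (2.73%). Because the set was picked with this contrast known, nothing is read from these counts.

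The log2 fold change of PTGS2 was -2.64 ± 0.99 (SE) with SWNT replicate 3 and -0.23 ± 0.48 (SE) without it (edgeR adjusted p = 0.997 and 0.983). Its levels were 3.54 ± 2.09 (SD, n = 5) for SWNT and 2.24 ± 1.05 (SD, n = 5) for SWNT-SHP1i on the log2 CPM scale. These and the levels below are means of log2 CPM, whereas the fold changes come from a fit to counts. A single high library weighs more in that fit, so levels and fold changes need not match. NR4A1 had -2.25 ± 1.06 (SE) and -0.19 ± 0.74 (SE), and its levels were 6.69 ± 2.50 (SD, n = 5) for SWNT and 5.84 ± 1.2 (SD, n = 5) for SWNT-SHP1i on the log2 CPM scale. IL6 had -2.41 ± 1.36 (SE) and 0.35 ± 1.16 (SE). For each of the 3 genes SWNT replicate 3 set most of the difference. FOS had -1.07 ± 1.06 (SE) and 0.08 ± 1.02 (SE), and its levels were 6.21 ± 2.38 (SD, n = 5) for SWNT and 5.35 ± 2.03 (SD, n = 5) for SWNT-SHP1i on the log2 CPM scale. ZFP36 had -1.42 ± 0.66 (SE) and -0.03 ± 0.27 (SE), TNFAIP3 -1.49 ± 0.56 (SE) and -0.50 ± 0.31 (SE), and NFKBIA -1.04 ± 0.44 (SE) and -0.26 ± 0.18 (SE). ATF3, at -2.40 ± 1.02 (SE), had the same value without SWNT replicate 3 (-2.40) and rested on SWNT replicate 4, without which it was -0.75. RRAD, at -1.0 ± 0.29 (SE), was at -1.01 ± 0.32 (SE) without SWNT replicate 3 and between -1.2 and -0.88 with any 1 library left out. The levels of RRAD were 6.47 ± 0.65 (SD, n = 5) for SWNT and 5.52 ± 0.41 (SD, n = 5) for SWNT-SHP1i on the log2 CPM scale, and edgeR gave it an adjusted p = 0.997.

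SOCS3 and 3 chaperones were the members with positive values both with and without SWNT replicate 3. The log2 fold change of SOCS3 was 0.64 ± 0.56 (SE), and 1.13 ± 0.55 (SE) without that library, and it was -0.10 without SWNT-SHP1i replicate 6. DNAJB1 had 0.78 ± 0.67 (SE), and -0.70 without SWNT-SHP1i replicate 5. HSPA8 had 0.25 ± 0.21 (SE) and HSPH1 0.05 ± 0.23 (SE), with HSPH1 at -0.16 without SWNT-SHP1i replicate 5. EGR1, at -0.29 ± 0.68 (SE), was at 0.12 without SWNT replicate 2 and at -1.24 without SWNT-SHP1i replicate 5. NR4A2, at -0.38 ± 1.18 (SE), was at -3.19 without the latter. The groups overlapped for every member: 0 of 41 had all SWNT-SHP1i libraries below all SWNT libraries (0.276% of all genes) and 0 had them all above (0.0816%). With SWNT replicate 3 set aside these counts were still 0 and 0 (0.697% and 0.207% of all genes). At such small shares over all genes, 0 of 41 is near the background and nothing is read from it. By role, the median log2 fold change was -0.97 for AP-1 genes with that library and 0.11 without it, -0.31 and 0.04 for the other transcription factors, -0.60 and -0.04 for early response genes, -0.89 and 0.00515 for feedback inhibitors, and 0.15 and 0.16 for chaperones.

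**Figure D4:**
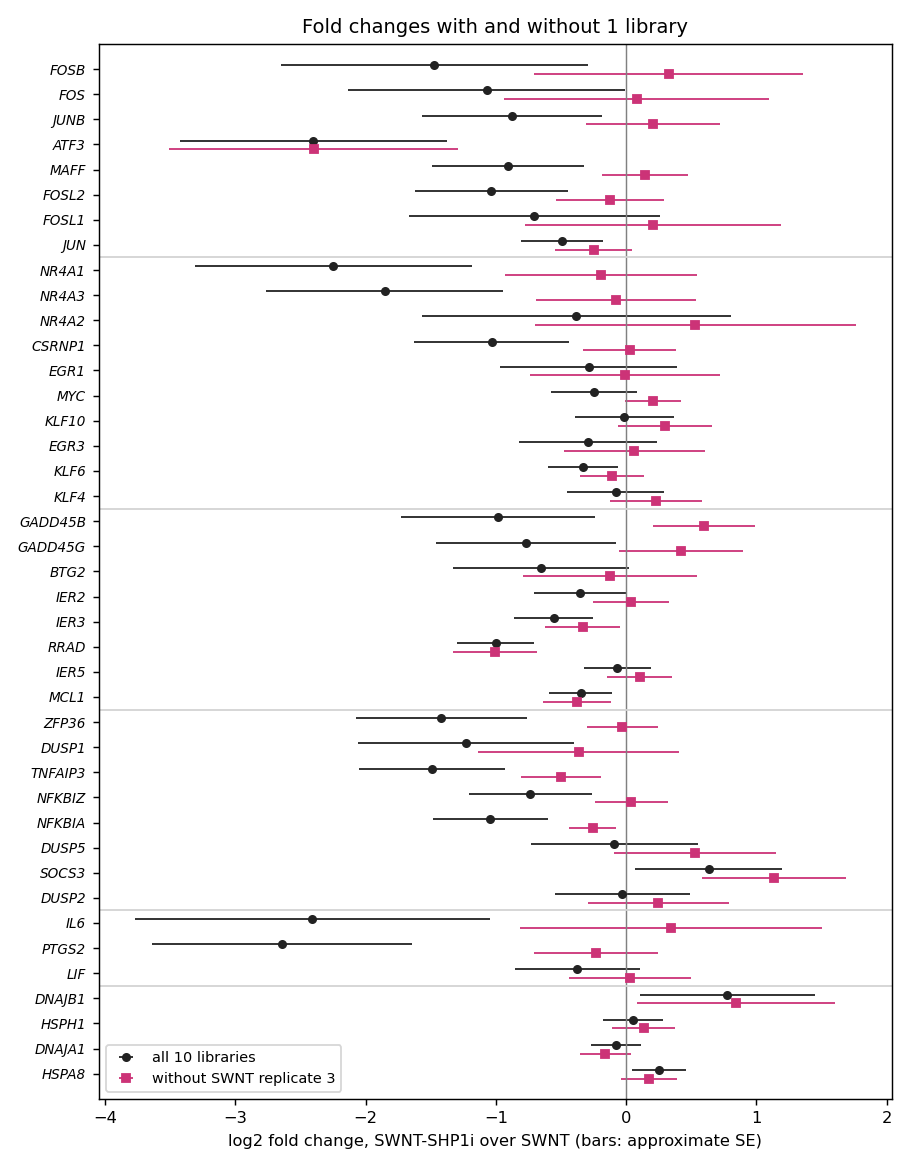
Points are log2 fold changes of SWNT-SHP1i over SWNT for 41 genes by role, from all 10 libraries (black circles) and from 9 without SWNT replicate 3 (pink squares), with the approximate SE as bars. Left of the zero line lie 37 black circles and 17 pink squares, and RRAD and ATF3 have nearly the same value in both fits.

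Other genes of the same pathways, from lists that hold none of the members, were counted in the same way, and 0 genes passed in any of these 9 lists. Among 36 tested further immediate early genes, 22 were highest in SWNT replicate 3 (11.3% of all genes) and 19 were at least 2-fold above the median of the other 9 libraries there (7.93%). SIK1 (-3.00 ± 1.17, and 0.13 without SWNT replicate 3) and THBS1, which encodes the matricellular protein thrombospondin (-1.46 ± 0.63 and -0.34), had the smallest p of this list. THBS1 stood at 426 CPM in SWNT replicate 3 and at 21.8 to 99.1 CPM elsewhere. Of this list 27 had negative log2 fold changes with that library and 17 without it, where 49.2% of all genes did in both fits. Some of its genes did not follow: CCN2, a growth factor of the matrix, was highest in SWNT replicate 4 and stood at 558 CPM in replicate 3, and DUSP6, a phosphatase of ERK, stood at 30.3 CPM there and 25.0 to 37.2 CPM elsewhere.

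In the other 8 lists, of 11 to 19 tested genes, 0 to 3 genes each were highest in SWNT replicate 3, where 11.3% of all genes were. The NF-kappaB, bZIP partner, IL-6 family, heat shock and unfolded protein lists lay above that share and the others below it. In lists this short, 1 or 2 genes make that difference. Of 19 genes of the MAP kinase cascade 1 was, and of 11 genes for SRF, its partners and the CREB factors 0 were. RPS6KA1, a kinase downstream of ERK, had 1.53 ± 0.58 and NRAS 0.38 ± 0.19, the smallest p of the first list. SRF itself had -0.50 ± 0.28 and its partner ELK3 0.37 ± 0.26. Of 15 NF-kappaB genes 3 were highest in that library, with BCL3 (1.42 ± 0.58) and CYLD (-0.57 ± 0.28) first by p, and of 11 other bZIP genes 2 were, with MAFK at -0.73 ± 0.30. Of 11 IL-6 family receptor and STAT3 genes 3 were highest there, led by p by IL6R (-0.57 ± 0.31) and OSMR (0.28 ± 0.31). Of 11 genes of the prostaglandin pathway 0 were, and there TBXAS1 (1.70 ± 0.69) and PTGES (0.67 ± 0.28) had the smallest p. Among 18 heat shock factors and further chaperones 3 were highest there (DNAJB6 -0.39 ± 0.23 and FKBP4 -0.26 ± 0.19 first by p), and among 12 genes of the unfolded protein and integrated stress response 3 were (TRIB3 1.09 ± 0.47 and DDIT4 -0.85 ± 0.51 first). BCL3, RPS6KA1, TBXAS1 and PTGES were each highest in SWNT-SHP1i replicate 6, as were 29.4% of all genes. That library had the high neutrophil and lymphocyte markers, whose part in these values was not tested. There BCL3 stood at 106 CPM, RPS6KA1 at 124 CPM and TBXAS1 at 13.8 CPM, against medians over the 9 libraries without SWNT replicate 3 of 13.8, 18.8 and 1.96 CPM. PTGES differed less, at 35.6 CPM there against a median of 24.5 CPM. All fold values here are log2 fold changes with their SE from the edgeR fit, with adjusted p of 0.997.

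**Figure D5:**
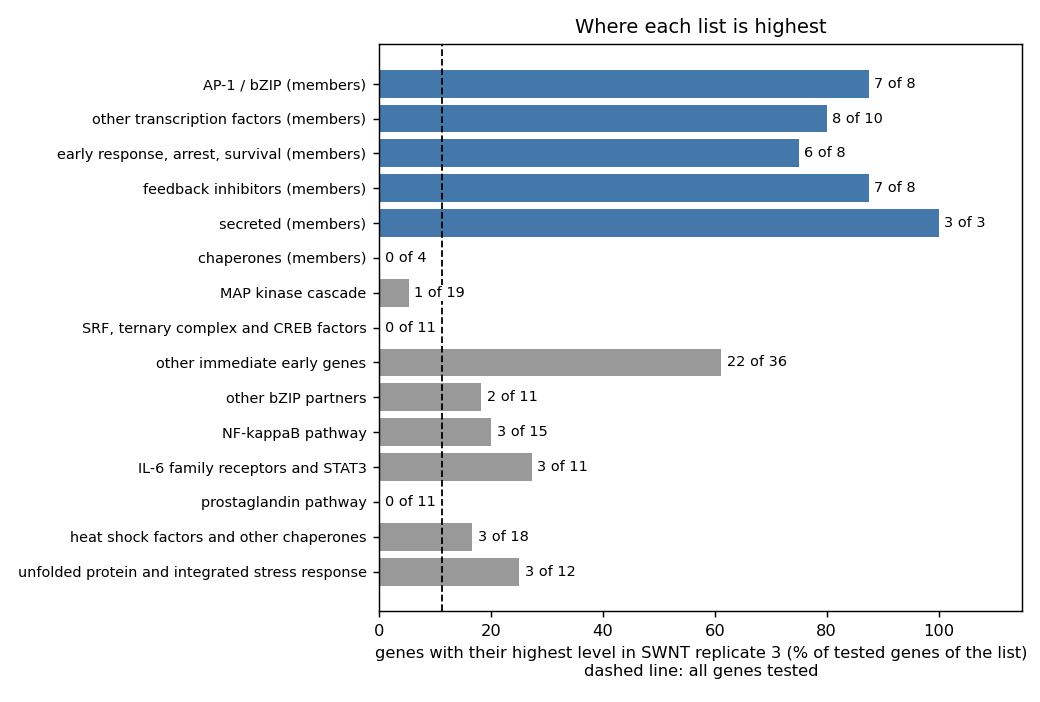
Bars give the percentage of tested genes of each list that had their highest level in SWNT replicate 3, with the counts beside them, for the 6 role groups of the set (blue) and 9 further pathway lists (grey). The dashed line at 11.3% is the share over all genes tested, which 5 of the 6 role groups and the further immediate early genes exceed by far. The chaperone members, the SRF and CREB factors and the prostaglandin pathway stand at 0, which in lists this short is near that share. The NF-kappaB, bZIP partner, IL-6 family, heat shock and unfolded protein lists lie above the line, with 2 or 3 genes each.

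SWNT replicate 3 also had the highest red cell and the lowest fibroblast marker sums of the 10 libraries, and the part of these in the result was not tested. The red cell markers with a row (5 of 9 listed, HBZ at 0) summed to 284 CPM in SWNT replicate 3 and 7.49 to 88.8 CPM in the other 9, and the 3 that passed the filter were all highest there. The 10 fibroblast markers summed to 33965 CPM in SWNT replicate 3 and 41221 to 82742 CPM in the other 9, the 11 macrophage markers to 427 CPM in SWNT replicate 3 and 392 to 1990.2 CPM in the other 9 and the 11 endothelial markers to 1965 CPM in SWNT replicate 3 and 592 to 2078 CPM in the other 9. The 7 adipocyte markers summed to 518 CPM in SWNT replicate 3 and 120.1 to 603 CPM in the other 9. The last 3 sums thus lay inside the range of the other libraries, although SWNT replicate 3 ranked 2 of 10 for the endothelial and adipocyte sums and 8 for the macrophage sum. Its smooth muscle sum, 70921 CPM, also ranked 2. Of the 12 smooth muscle markers 8 were highest there, of the 11 endothelial markers 5 and of the 7 adipocyte markers 1, against 11.3% of all genes. By group, the red cell sums were 13.2 to 284 CPM in SWNT and 7.49 to 59.9 CPM in SWNT-SHP1i, the fibroblast sums 33965 to 67060.0 CPM in SWNT and 56075 to 82742 CPM in SWNT-SHP1i, the macrophage sums 392 to 1177 CPM in SWNT and 409.6 to 1990.2 CPM in SWNT-SHP1i, the endothelial sums 592 to 1965 CPM in SWNT and 759.9 to 2078 CPM in SWNT-SHP1i and the adipocyte sums 120.1 to 603 CPM in SWNT and 172 to 508 CPM in SWNT-SHP1i. Mitochondrially encoded genes took 2.97% of its reads, against 1.16% to 2.55% in 8 libraries and 8.61% in SWNT-SHP1i replicate 3. SWNT replicate 3 and SWNT-SHP1i replicate 3 are the analysed animals without a number beginning with B9, and the labels do not say what that range of numbers means. Among the 8 B9 animals 15 of 41 members had a negative log2 fold change (48.5% of all genes), with a median of 0.15. At an unadjusted p under 0.05 in edgeR, RRAD was lower there (0.586% of all genes) and SOCS3 higher (2.77%), and 0 members passed adjustment. SWNT-SHP1i replicate 3, also outside the B9 numbers, did not share the high levels: 0 members were highest there (14.1% of all genes) and its median member lay -0.16 log2 units from the median over libraries.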

How the data were processed

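Poly-A RNA of carotid artery was sequenced in 10 animals with counts, 5 per group, with groups taken from the treatment label and replicates numbered in accession order. The authors deposited whole read counts per gene, without normalization. Trim Galore, STAR, DESeq2 and the build Sscrofa11.1 are named in the submitters' processing notes. For the counting program, strand setting and gene annotation, the release and options are not stated in what was used here, so reads of overlapping antisense genes and of near-identical copies cannot be assigned with certainty. Per the file headers, exon length is in the same table.

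From these counts, edgeR 4.0.16 (R 4.3.3, filterByExpr with a minimum count of 10, TMM, robust quasi-likelihood test, Benjamini-Hochberg over all genes) compared SWNT-SHP1i with SWNT without covariates. It was tested on simulated data. The SE is approximate, taken as |log2 fold change| over the root of the F statistic. Log2 CPM used a prior count of 2. Total counts were 27593564 to 47718854, and the filter kept at least 99.9% of each. Members, lists and tests were chosen with earlier results of these data known. Members named with all values are those of widest range in each role, up to 5 in roles of 8 or more and 3 in smaller ones, and pathway genes are the 2 of smallest p per list, with CCN2 and DUSP6 chosen after their values were seen. The result of 1 pathway gene that this rule names is not reported here. Alternatives were other scalings, filters and prior counts, DESeq2 1.42.0, limma-voom with quality weights (limma 3.58.1), the animal number range as a term, and libraries left out. Cell type markers were summed as CPM.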

Additional observations from a re-analysis of the deposited data

Results flagged for a closer look

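Within each group of 5 libraries, a library was singled out when its gap to the nearest other library, over the range of the group, was above Dixon's critical value for a group of 5, on the log2 CPM scale. Chance alone would single out about 1 in 20 independent groups, but the 82 groups of values looked at share the same 10 libraries. The set was also picked with the high levels of SWNT replicate 3 known, so these flags are description and test nothing. SWNT replicate 3 was singled out as high for 7 members, where 1.88% of all genes tested had it so: ZFP36 (9.87 log2 CPM), NFKBIA (8.40), FOSL2 (7.96), PTGS2 (7.19), IER2 (7.14), MAFF (6.57) and TNFAIP3 (6.53). FOS, FOSB, NR4A1 and DUSP1 were not, and other SWNT libraries were high for them too. SWNT-SHP1i replicate 5 was far above its group for DNAJB1 (9.66 log2 CPM) and EGR1 (9.03). Low libraries were SWNT replicate 1 for RRAD (5.33 log2 CPM), SWNT-SHP1i replicate 1 for LIF (0.99) and SWNT-SHP1i replicate 3 for FOSL1 (-4.21), the last from 0 reads.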

How the results depend on the processing

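No gene or member was called by edgeR under any scaling, filter, term or set of libraries tried, nor by DESeq2 or limma-voom. With 1 library left out, the members with a negative log2 fold change numbered 17 to 37, their median log2 fold change ran from -0.90 to 0.04, and the median correlation between members from 0.21 to 0.55. The ends at 17, 0.04 and 0.21 were those without SWNT replicate 3, and with any other library left out the negative members numbered 34 to 37. With 1 of the other libraries left out, the members highest in SWNT replicate 3 numbered 31 to 33, and they numbered 30 with RLE scaling and with 1 CPM required in 5 libraries. Over the animals with B9 numbers, 15 members were negative, with a median of 0.15 and a median correlation of 0.24, and this set also lacks SWNT replicate 3. Limma-voom with quality weights, which give outlying libraries less weight, had 29 negative members and a median of -0.16, and the animal number range as a term gave 31 and -0.23. With 1 CPM required in 5 libraries 40 members were tested. No paired analysis was possible because replicate numbers follow accession order and pair no animals. Low counts limit IL6 and FOSL1 most.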
